A study of Arabidopsis thaliana with 12 samples.

Results

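The chloroplast genome of Arabidopsis encodes part of its own gene expression machinery. Transcripts of 31 chloroplast genes, most of them for that machinery, are described here across 12 leaf RNA libraries. With earlier results of these data known, the genes were taken by locus identifier. Of them, 11 encode proteins of the small ribosomal subunit (rps), 9 encode proteins of the large ribosomal subunit (rpl) and 4 encode subunits of the plastid RNA polymerase (rpo). The other 7 are the genes of various proteins (matK, clpP, accD, cemA, ccsA, ycf1 and ycf2). They are 31 of the 32833 genes in the deposited table and 31 of its 133 plastid-encoded loci. The plants were tpt-2, a mutant of the chloroplast triose phosphate/phosphate translocator TPT, and Col-0, the wild-type accession. All were soil-grown plants aged 21 d, kept under a light period of 10 h. When a night ended they were put into high light of 500 µmol photons m-2 s-1. Leaf samples were collected 9 h or 18 h later, which gives tpt-2 at 9 h, Col-0 at 9 h, tpt-2 at 18 h and Col-0 at 18 h, with 3 biological replicates each. Libraries from plants before the shift to high light were not analysed here, so a difference between the genotypes in high light cannot be told apart from one that was there before it. In whole leaves, fewer cells of a type and less RNA per cell also cannot be told apart.

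Plastid genes are read by a plastid-encoded polymerase of bacterial type, built from the rpoA, rpoB, rpoC1 and rpoC2 products together with nuclear-encoded sigma factors, and by a phage-type polymerase that is encoded in the nucleus. Genes of the gene expression machinery such as rpoB, and also accD, are known for promoters of the nuclear-encoded enzyme. Photosynthesis genes depend mainly on the plastid-encoded one. Most plastid genes are transcribed together with their neighbours and then cut, spliced and trimmed, and their mature RNAs lack the long poly(A) tail of nuclear messengers. A tail added to plastid RNA is known to mark it for breakdown. The libraries were made from RNA bound to poly-T beads, so the values count plastid RNA that was retained in that step, and not the whole plastid RNA of the leaf.

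The coding sequences of 4 genes, from the RefSeq annotation, are shown because their transcripts stood at the extremes of what follows. The genotype difference at 9 h was lowest for rpl32 and among the highest for rpl33, rpl36 had the lowest p for a change of that difference with time, and rps16 had no fragment in Col-0 at 9 h. They are written 5′ to 3′ on the coding strand, with each run of 6 or more A in capitals. On the plastid sequence of TAIR10.1 they lie at Pltd:113449-113607 (+), Pltd:67488-67688 (+), Pltd:79489-79602 (-) and Pltd:5084-6188 (-), and rps16 is given spliced from its 2 exons.
rpl32: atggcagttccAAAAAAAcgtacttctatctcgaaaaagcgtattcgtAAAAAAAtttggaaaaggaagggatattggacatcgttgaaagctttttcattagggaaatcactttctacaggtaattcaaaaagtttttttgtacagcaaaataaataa
rpl33: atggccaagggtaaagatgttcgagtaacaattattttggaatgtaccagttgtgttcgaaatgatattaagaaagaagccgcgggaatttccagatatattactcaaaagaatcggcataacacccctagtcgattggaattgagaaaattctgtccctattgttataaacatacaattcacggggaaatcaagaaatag
rpl36: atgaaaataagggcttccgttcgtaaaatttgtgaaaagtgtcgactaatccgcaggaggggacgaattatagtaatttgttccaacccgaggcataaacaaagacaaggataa
rps16: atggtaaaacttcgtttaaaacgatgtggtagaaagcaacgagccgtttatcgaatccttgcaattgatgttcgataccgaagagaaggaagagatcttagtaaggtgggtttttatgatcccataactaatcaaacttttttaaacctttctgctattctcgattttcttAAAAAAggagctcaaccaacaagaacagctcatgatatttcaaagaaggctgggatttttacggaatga
The run of 6 or more A was searched on the coding strand alone. At least 1 was present in 24 of the 31 genes (77.4%), against 40 of the 80 distinct plastid coding sequences (50%), which include these 31. The same length of T was found in 15 of the 31 genes (48.4%) and in 42 of the 80 sequences (52.5%). Longer coding sequences have more room for a run, and ycf1 alone holds 51. The 21 tested genes with a run of A had a median log2 fold change of 2.30 for tpt-2 against Col-0 at 9 h, and the 6 tested genes without one had 2.04, with both sets spanning low and high values. The share of A and T was 55.9% to 71.3% of the coding sequence, with a median of 63.7%.

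The targeted gene went with the labels, since TPT (AT5G46110) was at 2.52 to 3.85 FPKM in the 6 tpt-2 libraries and at 328 to 465 FPKM in the 6 Col-0 libraries. FPKM are fragments per kilobase of gene and per 1000000 fragments of the library. Depth, recovered from the steps between low values, was 12.3 to 14.3 per library in units of 1000000 fragments, and 25.7 in Col-0 replicate 1 at 18 h. Plastid-encoded transcripts were a small part of every library. At 9 h they were 0.599% to 3.22% of the summed FPKM in tpt-2 and 0.0547% to 0.0721% in Col-0. At 18 h they were 0.342% to 0.672% in tpt-2 and 0.0507% to 0.0619% in Col-0. The leaf markers RBCS1A, RCA, CAB1 and GAPA were high in all libraries, for example 17521 to 20922 FPKM of RBCS1A in tpt-2 and 18152 to 22618 FPKM in Col-0. The seed markers OLEO1, CRA1 and CRU3 reached 0.0816 FPKM in tpt-2 and 5.62 FPKM in Col-0. Of the root markers, PRX57 reached 0.0587 FPKM in tpt-2 and 0.309 FPKM in Col-0, while PYK10 was at 172 to 350 FPKM in tpt-2 and 148 to 323 FPKM in Col-0.

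Summed over the 31 genes, the 9 h level was 499, 489 and 2048 FPKM in tpt-2, against 113, 128 and 111 FPKM in Col-0. The 18 h level was 437, 580 and 358 FPKM in tpt-2, against 165, 146 and 140 FPKM in Col-0. Every tpt-2 library lay above every Col-0 library, and tpt-2 replicate 3 at 9 h lay far above all others. The 102 other plastid loci differed by more. At 9 h they summed to 3669, 3593 and 20480 FPKM in tpt-2 against 291, 367 and 265 FPKM in Col-0. At 18 h they summed to 2741, 3974 and 1949 FPKM in tpt-2 against 255, 226 and 205 FPKM in Col-0. The 31 genes were therefore a smaller share of the plastid FPKM in tpt-2. At 9 h it was 12%, 12% and 9.09% in tpt-2 against 28.0%, 25.9% and 29.5% in Col-0. At 18 h it was 13.7%, 12.7% and 15.5% in tpt-2 against 39.2%, 39.2% and 40.6% in Col-0. Without rpl32, the most abundant of them in Col-0, the 9 h shares were 8.75% to 10.9% in tpt-2 and 17.1% to 20.3% in Col-0. The 18 h shares without it were 10.7% to 13.0% in tpt-2 and 28.0% to 29.9% in Col-0. At each time the genotypes still did not overlap.

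The values of mitochondrial RNA are given beside these. Transcripts of mitochondrial loci summed at 9 h to 52.9 to 69.7 FPKM in tpt-2 and 26.8 to 55.8 FPKM in Col-0, which overlap. At 18 h they summed to 64.4 to 80.7 FPKM in tpt-2 and 23.6 to 25.8 FPKM in Col-0, without overlap. Of 12 mitochondrial genes tested, 2 were called higher in tpt-2 at 9 h, where 13.6% of all genes tested were, and 4 at 18 h, where 2% were. The part of organelle RNA recovery in the results that follow was not tested.

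**Figure D1:**
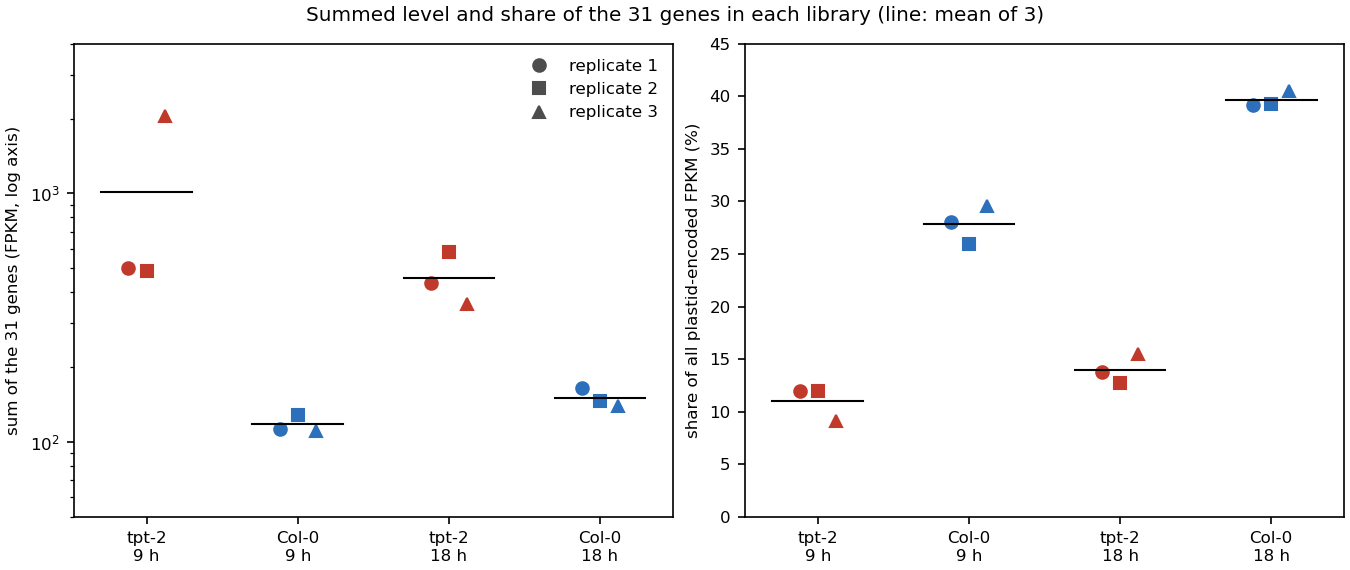
Summed FPKM of the 31 genes (left, log axis) and their share of all plastid-encoded FPKM in percent (right) for each library, tpt-2 left of Col-0 at each time, with a symbol per replicate and a line at the mean of 3. The summed level is higher in all tpt-2 libraries, with replicate 3 at 9 h at 2048 FPKM, while the share is lower in all of them.

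That replicate stood apart for plastid RNA. Its value divided by the mean of the other 2 tpt-2 libraries at 9 h had a median of 4.45 over the 27 genes tested, with a range of 1.62 for rpl32 to 8.38 for rps14. The same ratio had a median of 5.39 over 75 other plastid genes, 1.07 over 12 mitochondrial genes and 0.973 over nuclear genes. FPKM are scaled to depth, so a nuclear median near 1 cannot show that nuclear genes were unchanged. Single nuclear genes had ratios of 0 to 46.3. Counts, fragment ratios and the 9 h differences of the genes described in every library are also given without that replicate.

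Of the 31 genes, 27 averaged 1 FPKM or more across all 12 libraries and were tested. The 4 that were not, rps7, rpl2, rpl23 and ycf2, all lie in the inverted repeat of the plastid genome in 2 identical copies, where a read cannot be placed on 1 copy. They had at most 1, 9, 3 and 8 fragments in any library. Of the 27 genes tested, 19 also averaged 1 FPKM or more in the Col-0 libraries alone. The other 8 (rps16, rps2, rps19, rps15, rpoC2, accD, ccsA and ycf1) passed only through their tpt-2 values and had to differ, so a count over all 27 cannot stand as support.

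After 9 h of high light, 26 of the 27 genes were higher in tpt-2 than in Col-0 and 0 were lower (limma, Benjamini-Hochberg adjusted p under 0.05 over all 17585 genes tested). Of all genes tested, 13.6% were called higher and 8.72% lower. Among the 19 genes that also passed on Col-0 alone, 18 were higher, with rpl32 the exception. The median log2 fold change was 2.15 over the 27 genes and 2.30 over the 19. It was 3.87 over the 76 other plastid genes, of which 72 were higher, and 0.07 over all genes tested. Those 76 passed the same filter over all 12 libraries and were not split by their Col-0 mean. The tpt-2 and Col-0 libraries did not overlap for 26 of the 27 genes, all higher in tpt-2, with rpl32 again the exception. The shares over all genes tested were 23.9% higher and 13.9% lower without overlap. The count of 26 includes the genes that passed only through tpt-2. Without tpt-2 replicate 3, 24 of the 27 were called, the calls of rpoB and ccsA were lost, and the median over the 27 was 1.58. All fold changes were taken between values of log2(FPKM + 1), so those of low-level genes are understated.

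**Figure D2:**
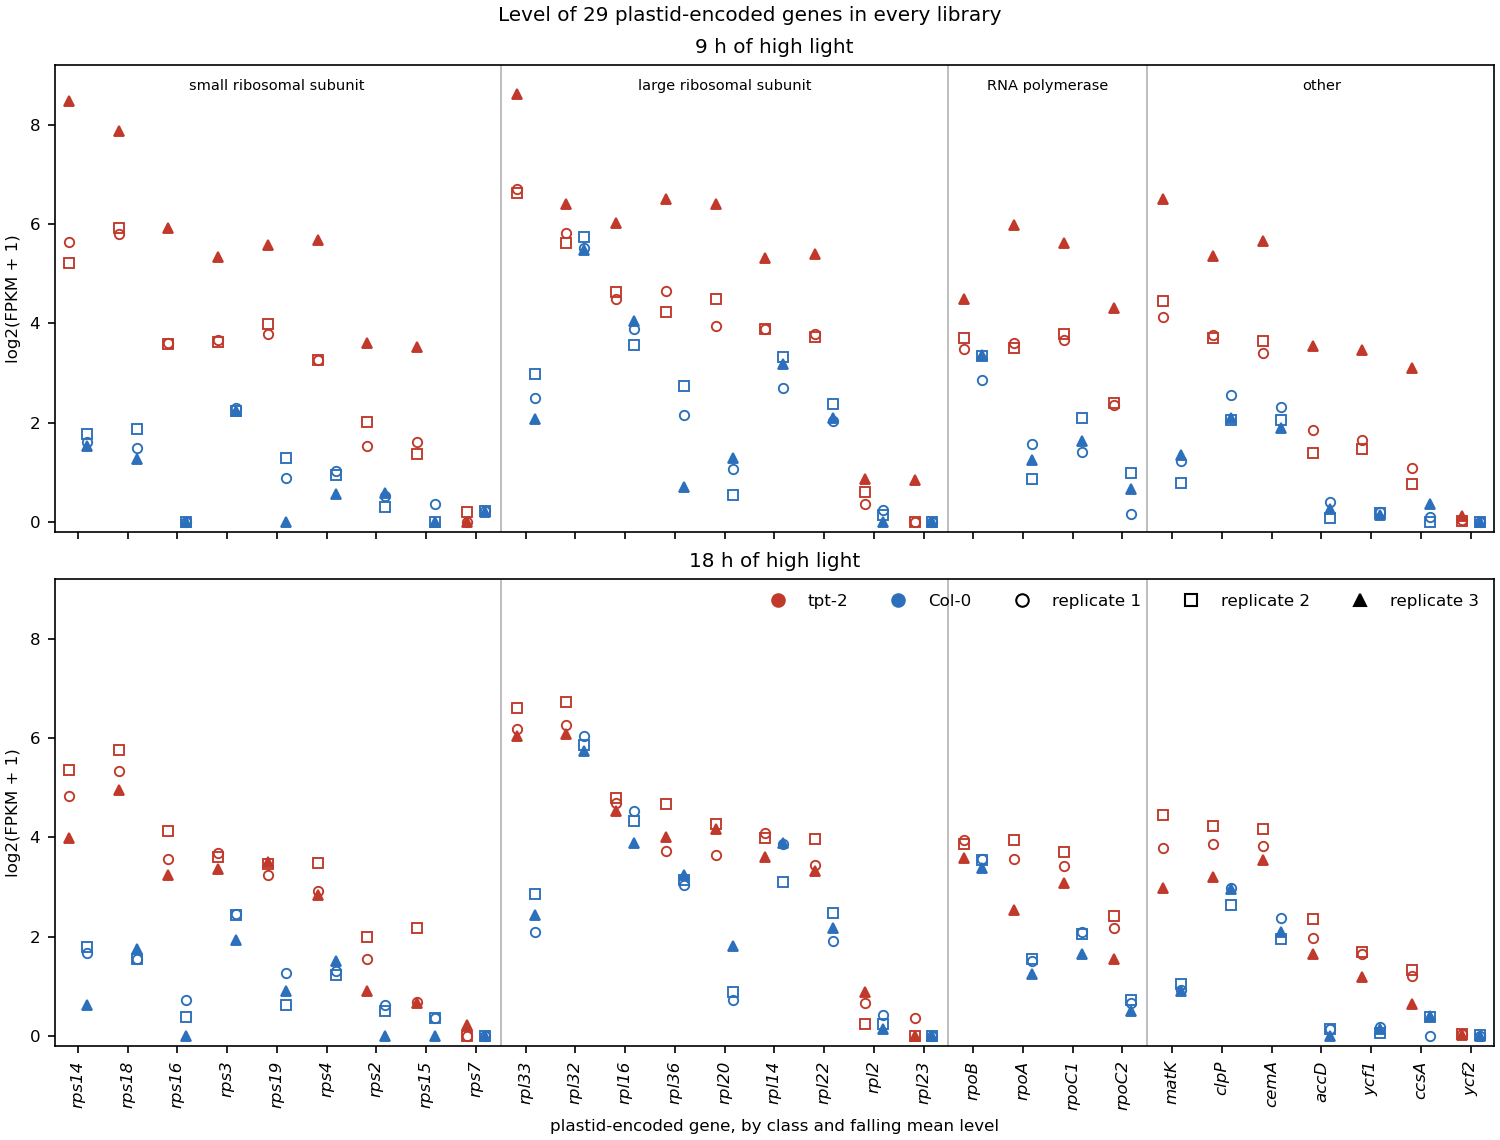
Level of 29 of the 31 genes as log2(FPKM + 1) in every library at 9 h (top) and 18 h (bottom), tpt-2 in red left of Col-0 in blue, with replicate 3 filled and genes ordered by class and falling mean. Most genes show separated genotypes, and replicate 3 of tpt-2 at 9 h is the top point of nearly every gene. Among the genes tested, rpl32 is the one whose genotypes lie together at 9 h. The untested rps7, rpl2, rpl23 and ycf2 are low in both genotypes.

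At 9 h all 10 small-subunit genes tested were higher in tpt-2, with log2 fold changes of 1.91 to 5.0. The highest mean level among them was that of rps14 (ATCG00330), whose product sits in the head of the small subunit. It had 49.2, 36.0 and 357 FPKM in tpt-2 and 2.07, 2.40 and 1.91 FPKM in Col-0. The 2 lower tpt-2 libraries still lay far above every Col-0 library. The difference was 4.81 ± 0.68 on the log2 scale (SE, limma adjusted p = 0.000683), and 3.79 without replicate 3. The largest difference of the class was that of rps18 (ATCG00650), an essential gene in tobacco plastids. It had 55.1, 59.7 and 234 FPKM in tpt-2 and 1.79, 2.65 and 1.42 FPKM in Col-0, again without overlap, and a log2 fold change of 5.0 ± 0.43 (SE, limma adjusted p = 3.36e-05), or 4.33 without replicate 3.

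Low-level genes of the small subunit differed by smaller numbers on that scale. The smallest difference was that of rps2 (ATCG00160), with 1.88, 3.05 and 11.2 FPKM in tpt-2 and 0.440, 0.228 and 0.508 FPKM in Col-0, a log2 fold change of 1.91 ± 0.45 (SE, limma adjusted p = 0.0105), or 1.30 without replicate 3. The lowest level was that of rps15 (ATCG01120), a gene that tobacco plastids can lose, at 2.07, 1.57 and 10.5 FPKM in tpt-2 and 0.293, 0 and 0 FPKM in Col-0. That is 50 fragments in tpt-2 against 1 in Col-0, a depth-scaled ratio of 48.6 with an exact 95% interval of 8.33 to 1957 that covers counting error only. Replicate 3 held 37 of the 50 fragments, and without it the ratio was 18.8 (exact 95% interval 2.82 to 798). Further, rps16 (ATCG00050) was singled out after its values were seen. It had 34, 38 and 188 fragments (11.2, 11.1 and 59.6 FPKM) in tpt-2 and 0 fragments in every Col-0 library. With Col-0 set to a floor of 3 fragments over the group, the depth-scaled ratio was 84.2. The exact 95% interval without that floor had a lower limit of 68.0, for counting error only. Without replicate 3 the ratio against the same floor was 34.7. Of the other small-subunit genes, rps3, rps4 and rps19 had means of 20.7 to 24.8 FPKM in tpt-2 and 0.764 to 3.79 FPKM in Col-0.

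Of the 7 large-subunit genes tested, 6 were higher in tpt-2 at 9 h. The exception was rpl32 (ATCG01020), an essential gene in tobacco plastids, with 55.5, 48.4 and 84.2 FPKM in tpt-2 and 44.8, 52.4 and 43.6 FPKM in Col-0. The groups overlapped, with a log2 fold change of 0.37 ± 0.20 (SE, limma adjusted p = 0.195), or 0.15 without replicate 3. At the other end was rpl33 (ATCG00640), which tobacco plastids can lose but need in the cold. It had 104, 97.2 and 393 FPKM in tpt-2 and 4.67, 6.85 and 3.23 FPKM in Col-0, a log2 fold change of 4.80 ± 0.44 (SE, limma adjusted p = 5.82e-05), or 4.14 without replicate 3. In Col-0 at 9 h rpl32 thus stood above rpl33 in every library, while in tpt-2 rpl33 stood above rpl32 in every library.

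Between these extremes, the lowest mean level of the class was that of rpl22 (ATCG00810), with 12.7, 12.2 and 41.2 FPKM in tpt-2 and 3.08, 4.19 and 3.29 FPKM in Col-0, a log2 fold change of 2.13 ± 0.37 (SE, limma adjusted p = 0.00208), or 1.58 without replicate 3. Next to rpl32, the abundant Col-0 transcripts rpl16 and rpl14 differed least, with log2 fold changes of 1.22 and 1.30, or 0.73 and 0.83 without replicate 3. The level of rpl16 was 36.6 ± 24.0 FPKM in tpt-2 and 13.4 ± 2.35 FPKM in Col-0 (SD, n = 3 each). The level of rpl14 was 22.2 ± 14.4 FPKM in tpt-2 and 7.51 ± 1.80 FPKM in Col-0 (SD, n = 3 each). Without replicate 3 the tpt-2 means were 22.7 FPKM for rpl16 and 13.9 FPKM for rpl14. The remaining genes, rpl20 and rpl36, had log2 fold changes of 3.98 and 3.27, or 3.26 and 2.58 without replicate 3.

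The 4 polymerase genes were all higher in tpt-2 at 9 h, by very different amounts. The most abundant in Col-0, rpoB (ATCG00190), which encodes the β subunit, had 10.2, 12.1 and 21.6 FPKM in tpt-2 and 6.29, 9.13 and 9.24 FPKM in Col-0. The difference was 0.71 ± 0.22 on the log2 scale (SE, limma adjusted p = 0.0402), and without replicate 3 it was 0.41 (adjusted p = 0.0947) and not called. This call was also lost under other alternatives, 13 in all. By contrast rpoA (ATCG00740), which encodes the α subunit, had 11.1, 10.4 and 62.1 FPKM in tpt-2 and 1.98, 0.818 and 1.39 FPKM in Col-0, a log2 fold change of 3.13 ± 0.55 (SE, limma adjusted p = 0.00236), or 2.33 without replicate 3. The other 2 subunits lay between them. For rpoC2 (ATCG00170), the β″ subunit and the least abundant, the values were 4.14, 4.27 and 18.7 FPKM in tpt-2 and 0.114, 0.980 and 0.594 FPKM in Col-0. For rpoC1 (ATCG00180), the β′ subunit, they were 11.6, 12.7 and 47.9 FPKM in tpt-2 and 1.65, 3.29 and 2.09 FPKM in Col-0. Neither gene had overlapping genotypes, and the log2 fold changes of 2.42 for rpoC2 and 2.64 for rpoC1 were 1.78 and 2.01 without replicate 3.

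Of the 7 other genes, the 6 tested were higher in tpt-2 at 9 h. The highest level and the largest difference were those of matK (ATCG00040), which encodes an intron maturase, with 16.5, 21.0 and 89.7 FPKM in tpt-2 and 1.34, 0.717 and 1.55 FPKM in Col-0, a log2 fold change of 3.91 ± 0.51 (SE, limma adjusted p = 0.000468), or 3.18 without replicate 3. The lowest level and the smallest difference were those of ccsA (ATCG01040), needed to attach heme to c-type cytochromes, with 1.12, 0.709 and 7.55 FPKM in tpt-2 and 0.0793, 0 and 0.293 FPKM in Col-0. Its call (log2 fold change 1.49 ± 0.48, SE, limma adjusted p = 0.0427) was lost without replicate 3 (0.77, adjusted p = 0.0658). The other 4 lay close together in log2 fold change, at 2.15 for cemA (ATCG00530), an envelope membrane protein, 2.03 for clpP (ATCG00670), the proteolytic subunit of the Clp protease, 2.02 for accD (ATCG00500), a subunit of acetyl-CoA carboxylase, and 2.02 for ycf1 (ATCG01130), a protein of the inner envelope translocon. Their depth-scaled fragment ratios were farther apart. These ratios were 7.17 for cemA (exact 95% interval 5.73 to 9.06) and 5.64 for clpP (4.48 to 7.16). For the less abundant accD and ycf1 they were 25.6 (14.1 to 51.9) and 35.6 (24.3 to 54.3). Replicate 3 gave most of the tpt-2 fragments of each of the 4. Without it the ratios were 3.24 for cemA (exact 95% interval 2.50 to 4.21), 3.26 for clpP (2.52 to 4.24), 10.9 for accD (5.79 to 22.7) and 15.1 for ycf1 (10.2 to 23.3).

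After 18 h the genotypes were still separated, with smaller differences in the estimates and fewer calls. Of the 27 genes, 8 were higher in tpt-2 (rps14, rps16, rps18, rps19, rpl20, rpl33, matK and accD) and 0 were lower, where 2% of all genes tested were called higher and 0.881% lower. Among the 19 genes that passed on Col-0 alone, 5 were higher. The median log2 fold change was 1.42 over the 27 genes and 1.47 over these 19. It was 2.74 over the 76 other plastid genes, of which 50 were higher, and 0.09 over all genes tested. Those 76 were again not split by their Col-0 mean. The libraries of the genotypes did not overlap for 26 of the 27 genes, rpl14 being the exception. The shares over all genes tested were 22.1% higher and 6.86% lower without overlap. The count of 26 again includes the genes that passed only through tpt-2. The count of 8 depends on the libraries in the fit, which share 1 estimate of spread. It was 18 when tpt-2 replicate 3 at 9 h, which is no library of this comparison, was left out. It was 4 without tpt-2 replicate 2 at 18 h, and 4, 3 and 4 without Col-0 replicates 1, 2 and 3 at 18 h. With voom it was 0, with 19 at an unadjusted p under 0.05.

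**Figure D3:**
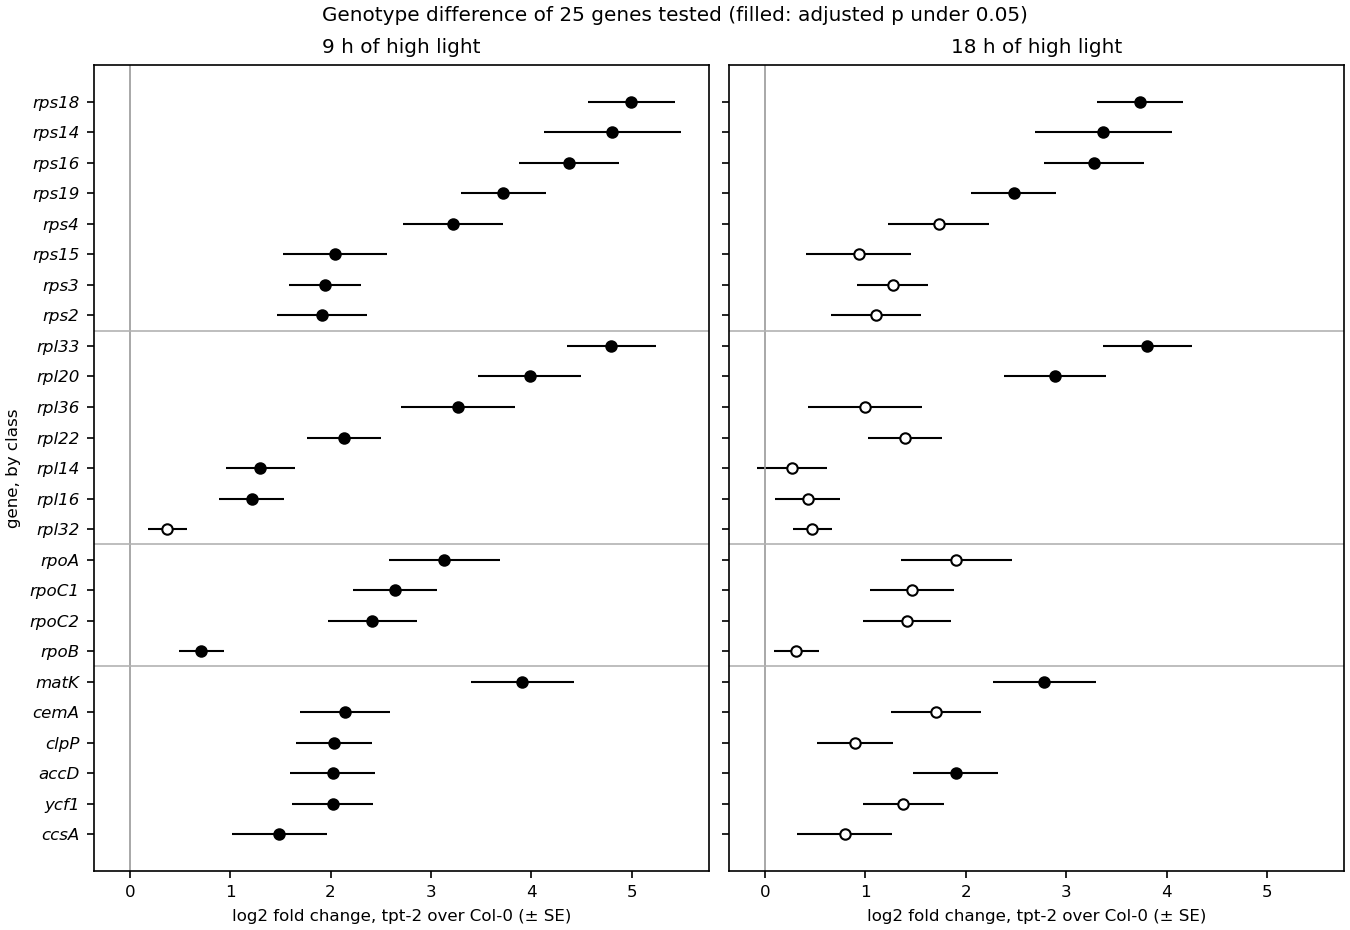
Log2 fold change of tpt-2 over Col-0 with its SE for 25 of the 27 genes tested, at 9 h (left) and 18 h (right), grouped by class and ordered by the 9 h value, with filled points for an adjusted p under 0.05. At both times rps18, rpl33 and matK lead their classes and rpoB is the lowest polymerase gene. The lowest large-subunit gene is rpl32 at 9 h and rpl14 at 18 h. In its class accD lies below cemA and clpP at 9 h and above both at 18 h.

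At 18 h rpl33 had the largest difference, with 71.3, 96.4 and 65.0 FPKM in tpt-2 and 3.29, 6.25 and 4.42 FPKM in Col-0 (log2 fold change 3.81 ± 0.44, SE, limma adjusted p = 0.00117). Next came rps18, with 39.6, 53.2 and 30.0 FPKM in tpt-2 and 1.91, 1.93 and 2.37 FPKM in Col-0 (3.74 ± 0.43, SE, limma adjusted p = 0.00116). For both genes the lowest tpt-2 value lay far above the highest Col-0 value. For rps14 the values were 27.7, 39.8 and 14.9 FPKM in tpt-2 and 2.19, 2.44 and 0.533 FPKM in Col-0. For matK they were 12.8, 20.8 and 6.89 FPKM in tpt-2 and 0.887, 1.07 and 0.868 FPKM in Col-0. Neither gene had overlapping genotypes. No polymerase gene passed the test at 18 h, with log2 fold changes of 1.91 for rpoA, 1.47 for rpoC1, 1.42 for rpoC2 and 0.31 for rpoB, and 3 of these 4 had an adjusted p of 0.0785 to 0.102.

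The 4 transcripts with the highest means in Col-0, rpl32, rpl16, rpl14 and rpoB, differed least at 18 h too. Over all 27 genes the relation was weak. The Col-0 level at 18 h and the log2 fold change at 9 h had a Spearman correlation of -0.25. For example, rpl33, at a mean of 4.65 FPKM in Col-0 at 18 h, had the largest difference at that time. The level of rpl32 was 75.3, 104 and 67.0 FPKM in tpt-2 and 65.2, 57.1 and 52.3 FPKM in Col-0, without overlap and by a log2 fold change of 0.47 ± 0.20 (SE, limma adjusted p = 0.202). That of rpoB was 14.5, 13.6 and 11.1 FPKM in tpt-2 and 10.8, 10.6 and 9.38 FPKM in Col-0, also without overlap (0.31 ± 0.22, SE, limma adjusted p = 0.445). With rpl16 and rpl14, these 4 genes made up 10.2% to 20.3% of the summed FPKM of the 31 genes in tpt-2 at 9 h and 62.2% to 68.8% in Col-0. At 18 h they made up 27.5% to 31.1% in tpt-2 and 63.8% to 67.7% in Col-0.

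Low fragment numbers limit the remaining genes at 18 h. The values of rps2 were 1.95, 2.96 and 0.875 FPKM in tpt-2 and 0.548, 0.415 and 0 FPKM in Col-0, and those of rps15 were 0.610, 3.50 and 0.583 FPKM in tpt-2 and 0.292, 0.277 and 0 FPKM in Col-0. For ccsA they were 1.32, 1.5 and 0.552 FPKM in tpt-2 and 0, 0.299 and 0.327 FPKM in Col-0. None of these 3 passed the test, and rps15 had 16 fragments in tpt-2 against 3 in Col-0, a depth-scaled ratio of 7.25 with an exact 95% interval of 2.07 to 38.8. On the same measure accD had 171 fragments in tpt-2 against 6 in Col-0, a ratio of 38.7 (exact 95% interval 17.4 to 107), and it was called.

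The difference between tpt-2 and Col-0 was not shown to change with time. The interaction of genotype and time called 0 of the 27 genes in limma (2.43% of all genes tested were higher and 2.35% lower), 1 gene had an unadjusted p under 0.05, and voom called 0. The estimate was below 0 for 26 of the 27 genes, with a median of -1.03, and -0.36 without tpt-2 replicate 3 at 9 h. The gene with the lowest p was rpl36 (ATCG00760), which tobacco plastids can lose. At 9 h it had 24.2, 17.8 and 90.04 FPKM in tpt-2 and 3.43, 5.68 and 0.633 FPKM in Col-0. At 18 h it had 12.1, 24.6 and 15.01 FPKM in tpt-2 and 7.17, 7.77 and 8.50 FPKM in Col-0. The genotypes did not overlap at either time, and Col-0 replicate 3 was the lowest library at 9 h with 1 fragment. Its interaction was -2.27 ± 0.80 (SE, limma adjusted p = 0.128). Across the 27 genes the log2 fold changes at 9 h and at 18 h, which share no library, had a Pearson correlation of 0.94 and a Spearman correlation of 0.88, a description across genes that are not independent of each other.

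Between the times, 0 of the 27 genes passed the test in either genotype. For 18 h against 9 h in tpt-2, 12.1% of all genes tested were called higher and 11.3% lower, and in Col-0 13.1% were higher and 15.5% lower. In tpt-2, 7 of the 27 genes had an unadjusted p under 0.05 and voom called 0. The median log2 difference was -0.75, and -0.17 without replicate 3 at 9 h, and the lowest adjusted p was that of rps18 at 0.0684. In Col-0, 1 gene, rpl36, had an unadjusted p under 0.05, voom called 0, and the median log2 difference was 0.12. The 18 h and 9 h libraries of tpt-2 did not overlap for 3 of the 27 genes, which were lower at 18 h, where 18.8% of all genes tested were higher and 19.3% lower without overlap. In Col-0 they did not overlap for 4 of the 27, which were higher at 18 h, where 20.1% of all genes tested were higher and 23.5% lower without overlap. Levels of the 27 genes kept nearly the same order in Col-0, where the Spearman correlation of the group means at 9 h and 18 h was 0.97, and it was 0.85 in tpt-2.

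Neighbouring genes on the plastid genome showed a shape that differed between the genotypes. On the minus strand, rpoB, rpoC1, rpoC2 and rps2 lie in this order of transcription between positions 26329 and 15013. At 9 h their means were 14.6, 24.1, 9.04 and 5.39 FPKM in tpt-2 and 8.22, 2.34, 0.563 and 0.392 FPKM in Col-0. The mean was thus lower from gene to gene in Col-0, with the first 21.0 times the last. In Col-0 replicate 1 the order of rpoC2 and rps2 was reversed, at 0.114 and 0.440 FPKM. The highest mean in tpt-2 was 4.47 times the lowest. Without replicate 3 the tpt-2 means were 11.1, 12.2, 4.2 and 2.47 FPKM, and the highest was 4.93 times the lowest. At 18 h the means were 13.1, 9.70, 3.25 and 1.93 FPKM in tpt-2 and 10.3, 2.85, 0.549 and 0.321 FPKM in Col-0. The highest was then 6.79 times the lowest in tpt-2 and 32.0 times in Col-0. The lowest gene in Col-0, rps2, had 11 fragments over the group at 9 h and 14 at 18 h, so the Col-0 ratios are uncertain.

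The longest run of neighbours, which holds rpl23, rpl2, rps19, rpl22, rps3, rpl16, rpl14, rpl36 and rpoA in this order, is read on the minus strand between positions 86143 and 77901. At 9 h the 7 of these genes that were tested lay between 20.7 FPKM for rps3 and 44.0 FPKM for rpl36 in tpt-2, and between 0.764 FPKM for rps19 and 13.4 FPKM for rpl16 in Col-0. The highest was 2.12 times the lowest in tpt-2 and 17.6 times in Col-0. Without replicate 3 other genes were at the ends in tpt-2, rpl16 at 22.7 FPKM and rpoA at 10.8 FPKM, and the highest was 2.11 times the lowest. At 18 h the highest, rpl16, was 2.57 times the lowest in tpt-2 and 19.7 times in Col-0. The lowest gene in Col-0 at both times, rps19, had 8 fragments over the group at 9 h and 15 at 18 h. The Col-0 ratios are therefore uncertain. In Col-0 the level climbed from rps19 to rpl16 and was lower again towards rpoA. In tpt-2 the profile was flatter at both times. On the plus strand rpl33 and rps18 are neighbours, and both belong to the genes with the largest differences. The reading frames of rps3 and rpl22 overlap by a few bases, and fragments there can belong to either.

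**Figure D4:**
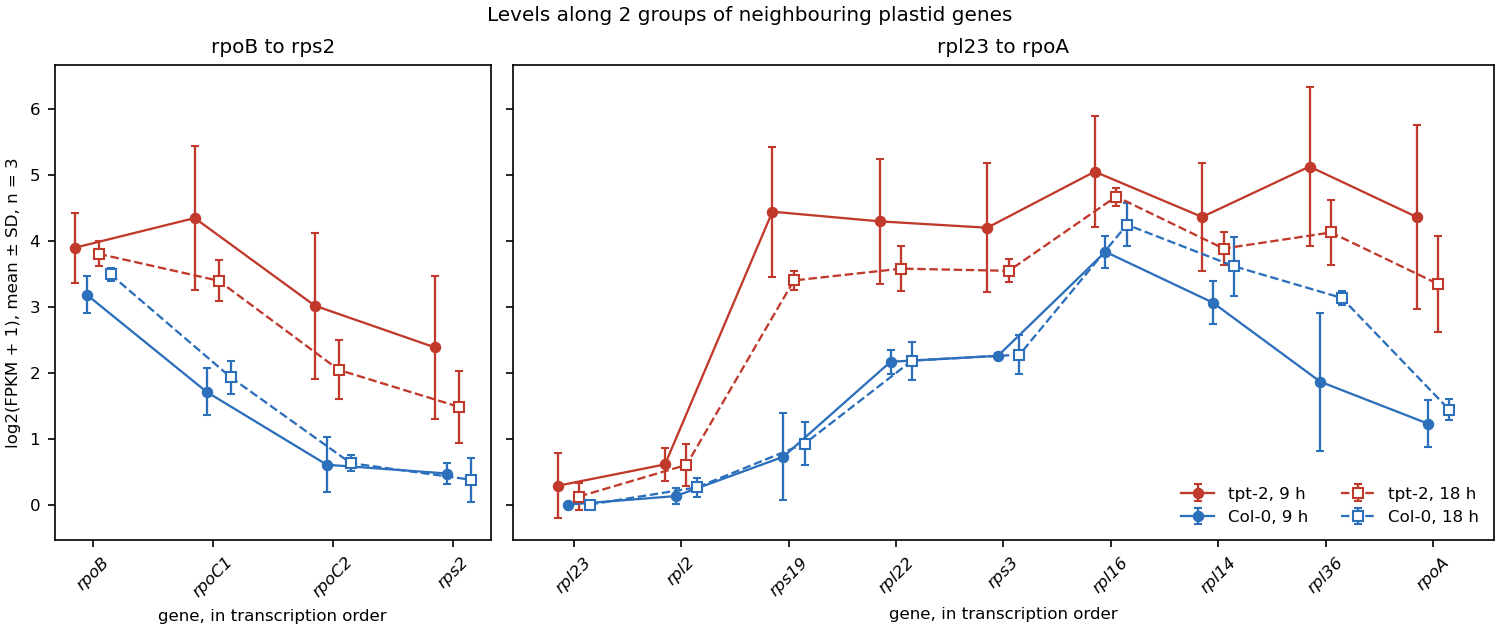
Mean log2(FPKM + 1) with SD over 3 libraries along the genes from rpoB to rps2 (left) and 9 genes from rpl23 to rpoA (right), in transcription order, for tpt-2 in red and Col-0 in blue at 9 h (filled, solid) and 18 h (open, dashed). In Col-0 the level peaks at rpoB and at rpl16 and is low around them, and in tpt-2 the profile from rps19 to rpoA is flatter.

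Because plastid transcripts as a group were higher in tpt-2, the genotype difference of each gene was also taken relative to the other plastid genes. For this the median of the 76 others tested was subtracted in each library. Those 76 were kept by their mean over all 12 libraries, so genes that passed only through tpt-2 can be among them. Such genes would raise the yardstick in tpt-2, and their part was not tested. In the fit over all 17585 genes, 15 of the 27 genes were lower in tpt-2 at 9 h and 15 at 18 h on this relative scale, 12 of them at both times, and 0 were higher. With only the libraries compared, the count at 9 h was 5. With array weights 20 were lower and 4 higher at 9 h, and 22 lower and 4 higher at 18 h. The background of that fit is set by nuclear genes, of which nearly all are lower when plastid genes are the yardstick: 99.5% of all genes were called lower at each time, and 0.0853% at 9 h and 0.0626% at 18 h higher. Adjusted p-values are then close to unadjusted ones. Among the 76 other plastid genes, 15 were lower and 15 higher at 9 h, and 15 were lower and 11 higher at 18 h.

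A fit over the 103 plastid genes tested, added after the values were seen, gave a background of plastid genes. At 9 h it called 18 of the 27 genes lower and 3 higher (rps14, rps18 and rpl33), where 41.7% of the 103 were lower and 25.2% higher. At 18 h it called 20 lower and 2 higher (rps18 and rpl33), where 42.7% were lower and 21.4% higher. The median over the 27 genes was -1.65 at 9 h and -1.60 at 18 h, against 0.08 and -0.28 over the 76 others. A pseudocount of 0.1 in place of 1 moved these medians to -0.80 at 9 h and -1.59 at 18 h, against 0.79 and 0.32 over the 76 others. The calls were then 11 lower and 2 higher at 9 h and 15 lower and 0 higher at 18 h.

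These 3 fits use the same libraries and are not independent. The first 2 hold the same log2 fold changes and differ in the estimate of spread and in the adjustment. The setting with only the libraries compared, which called 5 genes at 9 h, is not among the 3. In all 3 fits rpl14, rpl16, rpl22, rpl32, rps3, rpoB and clpP were lower than the other plastid genes at both times. In the fit over plastid genes their difference at 9 h was -3.42 ± 0.35 for rpl32, -3.09 ± 0.39 for rpoB, -2.58 ± 0.37 for rpl16, -2.50 ± 0.34 for rpl14 and -1.67 to -1.85 for the other 3 (SE). At 18 h it was -2.75 ± 0.34 for rpl14, -2.71 ± 0.39 for rpoB, -2.59 ± 0.37 for rpl16 and -2.55 ± 0.35 for rpl32. Another 7 genes, rps14, rps16, rps18, rps19, rpl20, rpl33 and matK, were lower at neither time in any of the 3, and their differences in the fit over plastid genes were -0.08 to 1.2 at 9 h and -0.54 to 0.79 at 18 h. For low-level genes the relative value hung on the pseudocount, and that of rps16 at 9 h was 0.58 with a pseudocount of 1 and 3.11 with 0.1. Likewise ycf1, accD, ccsA, rps2 and rps15 were lower with a pseudocount of 1 and not called with 0.1.

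**Figure D5:**
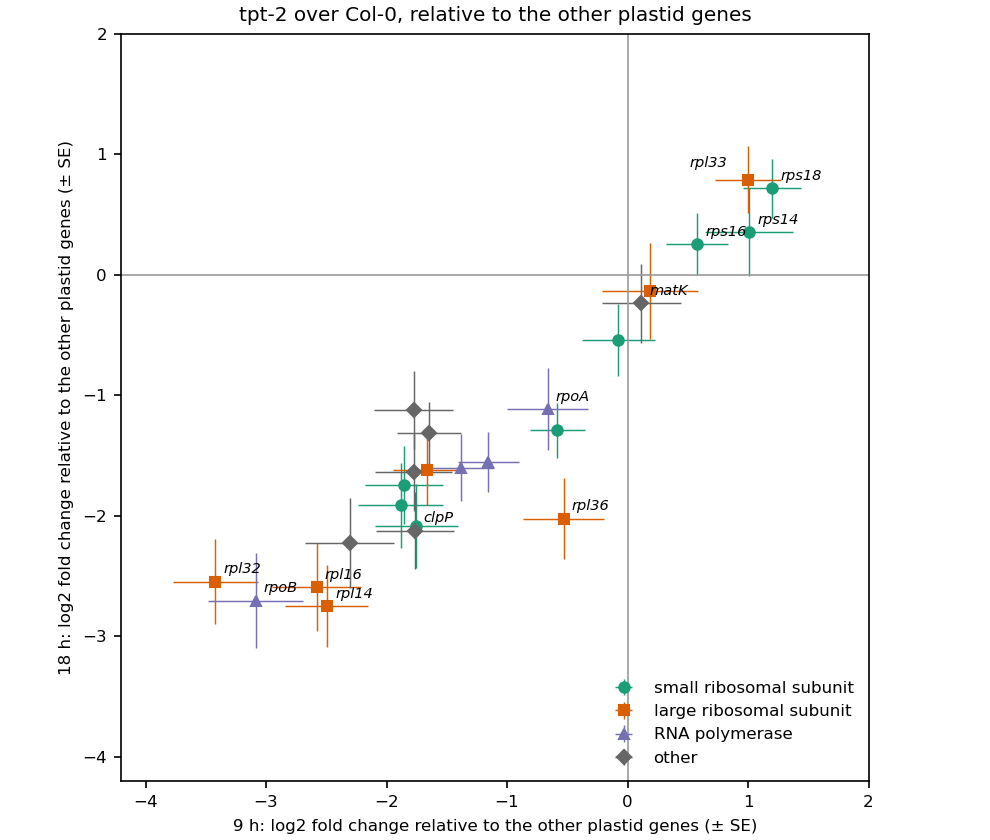
Log2 fold change of tpt-2 over Col-0 relative to the median of the other plastid genes, at 9 h (x axis) and 18 h (y axis), each with its SE from the fit over 103 plastid genes, with a symbol and colour per class. Most of the 25 genes drawn lie below 0 on both axes, rpl32, rpoB, rpl16 and rpl14 farthest, and rps18, rpl33, rps14 and rps16 lie above 0 on both.

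The proteins encoded by these genes work beside nuclear-encoded partners, whose transcripts are ordinary polyadenylated messengers and were taken from lists of known members. Of 37 nuclear genes for plastid ribosomal proteins, 23 were higher and 0 lower in tpt-2 at 9 h (limma), where 13.6% of all genes tested were higher and 8.72% lower. Their median log2 fold change was 0.26, against 0.07 over all genes. At 18 h 0 were higher and 1 was lower, with 15 at an unadjusted p under 0.05 and 1 called by voom. The shares over all genes tested were 2% higher and 0.881% lower. The interaction called 17 of the 37 lower, where 2.35% of all genes tested were lower. The gene with the lowest p at 9 h was PRPS21, at 381 ± 12.7 FPKM in tpt-2 and 277 ± 23.4 FPKM in Col-0 (SD, n = 3 each, log2 fold change 0.46 ± 0.07, SE, limma adjusted p = 0.000856). At 18 h it was PRPL19A, at 333 ± 22.0 FPKM in tpt-2 and 405 ± 15.7 FPKM in Col-0 (-0.28 ± 0.07, SE, limma adjusted p = 0.0476). These differences were small beside those of most plastid-encoded ribosomal genes. Median-ratio scaling over nuclear genes left 12 of the 37 higher at 9 h and 0 lower. At 18 h the 1 call became 0 to 4 under the other settings and 0 to 1 when a library was left out.

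Of 20 nuclear genes for plastid transcription (sigma factors, proteins associated with the plastid-encoded polymerase and the phage-type polymerases RPOTp and RPOTmp), 2 were higher and 0 lower at 9 h, a share near that of all genes. At 18 h 0 were higher and 1 lower, where 2% of all genes tested were higher and 0.881% lower. PTAC3 had the lowest p at 9 h, with 48.0 ± 4.76 FPKM in tpt-2 and 36.0 ± 1.09 FPKM in Col-0 (SD, n = 3 each). PTAC12 had it at 18 h, with 63.7 ± 5.53 FPKM in tpt-2 and 80.3 ± 4.55 FPKM in Col-0 (SD, n = 3 each, limma adjusted p = 0.0461). The 1 call at 18 h became 0 to 4 under the other settings and 0 to 3 when a library was left out. The interaction called 2 of the 20 lower and 0 higher, with 11 at an unadjusted p under 0.05. Of all genes tested, it called 2.35% lower and 2.43% higher. Of 10 nuclear genes for plastid RNA decay and splicing, 3 were higher and 0 lower at 9 h, where 13.6% of all genes tested were higher and 8.72% lower. The 3 were led by the splicing factor gene CRS1 at 11.7 ± 0.587 FPKM in tpt-2 and 7.83 ± 0.596 FPKM in Col-0 (SD, n = 3 each). At 18 h 0 of the 10 were called by limma or voom, and 2 had an unadjusted p under 0.05. The lowest p was that of PNP, the plastid polynucleotide phosphorylase gene, at 31.2 ± 1.77 FPKM in tpt-2 and 40.4 ± 3.72 FPKM in Col-0 (SD, n = 3 each, limma adjusted p = 0.123). For these 10 genes the interaction called 2 lower and 0 higher, with 6 at an unadjusted p under 0.05.

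Few partners of the remaining genes passed the test. Beside their counts, 13.6% of all genes tested were called higher and 8.72% lower at 9 h, and 2% and 0.881% at 18 h. Of 13 nuclear Clp protease genes 2 were higher and 0 lower at 9 h, also a share near that of all genes. The lowest p was that of CLPC1, at 433 ± 23.2 FPKM in tpt-2 and 361 ± 23.8 FPKM in Col-0 (SD, n = 3 each). At 18 h limma and voom called 0 of the 13, with 3 at an unadjusted p under 0.05 and CLPC2 lowest (limma adjusted p = 0.0662). Of 4 nuclear acetyl-CoA carboxylase genes 1 was higher and 1 lower at 9 h. The lower one was BCCP2, at 13.3 ± 0.412 FPKM in tpt-2 and 17.9 ± 1.27 FPKM in Col-0 (SD, n = 3 each). At 18 h limma and voom called 0 of the 4, with 0 at an unadjusted p under 0.05 and CAC2 lowest (limma adjusted p = 0.284). Of 9 genes for the import motor and the inner envelope translocon 0 were higher and 1 was lower at 9 h. This was pdNAD-MDH, at 66.3 ± 4.11 FPKM in tpt-2 and 87.8 ± 2.77 FPKM in Col-0 (SD, n = 3 each). At 18 h limma and voom called 0 of the 9, with 6 at an unadjusted p under 0.05 and FTSH12 lowest (limma adjusted p = 0.0642). Of 3 genes for cytochrome c assembly limma and voom called 0 at either time, with 2 at an unadjusted p under 0.05 at 9 h and 0 at 18 h. CCS1 had the lowest p at both (limma adjusted p = 0.0754 at 9 h and 0.317 at 18 h). The interaction called 1 of the 13 Clp protease genes and 1 of the 9 import genes lower, and 0 higher. It called 0 genes of the acetyl-CoA carboxylase and cytochrome c assembly lists. Unadjusted p-values under 0.05 numbered 5, 7, 3 and 1 in these 4 lists. Of all genes tested, the interaction called 2.35% lower and 2.43% higher.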

How the data were processed

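Messenger RNA was purified from leaf RNA with poly-T beads and made into directional (dUTP) libraries, per the labels' protocols. The submitters' processing notes name CASAVA, HISAT2 2.0.5, featureCounts 1.5.0-p3, DESeq2 1.20.0 and the build TAIR10, with no role or order; whether counting used strand is not given in the sources used here, so sense and antisense reads cannot be told apart. The values are FPKM, computed by the authors and deposited as 1 table with a column for each of the 12 libraries, and every column carried a sample title.

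The FPKM were used unscaled. Genes averaging 1 FPKM or more were kept, and log2(FPKM + 1) was fitted in limma 3.58.1 (R 4.3.3; 4 groups as 1 factor, all 12 libraries, eBayes with trend). P-values are two-sided and adjusted by Benjamini-Hochberg over 17585 genes, with calls under 0.05. Summaries used Python 3.11.15, numpy 2.4.6, pandas 2.3.3 and scipy 1.17.1. Self-tests on simulated data were run.

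Depth came from the steps between low FPKM, where 98.3% to 98.6% of values came out as whole fragments within 0.05. The RefSeq coding length (TAIR10.1) made the values of 30 of the 31 genes whole within 0.2, which also ties the names to the loci; matK needed 1581 bases in place of 1515. For the 4 genes with 2 copies this check is weak, since few fragments were counted. Intervals and floors (3 fragments) cover counting error only. No replicate pair shared a value above 0.

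Library numbers did not pair the samples. Values of 2 of the 31 genes are not reported here one by one, though counts and sums over the set include them. The values in every library are given, by class, for the genes with the highest and lowest mean that passed the filter and with the largest and smallest 9 h difference, and of each nuclear list the genes with the lowest p at each time. The genes, the lists and this rule were chosen with earlier results of these data known. Alternatives were another pseudocount, filters, scalings, the libraries in the fit, array weights, a replicate block and leaving out each library; voom and both fits over plastid genes were chosen after seeing the data.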

Additional observations from a re-analysis of the deposited data

Results flagged for a closer look

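The 4 genes in the inverted repeat were too low to test. Of them, 2 were flagged because their tpt-2 over Col-0 fragment ratio, pooled over both times, had an interval above 1. Over both times rpl2 had 35 fragments in tpt-2 and 13 in Col-0, a depth-scaled ratio of 3.12 with an exact 95% interval of 1.61 to 6.43, and ycf2 had 17 fragments in tpt-2 and 1 in Col-0, a ratio of 19.7 with an exact 95% interval of 3.09 to 824. At 18 h alone the exact 95% intervals reached below 1, at 0.999 to 5.64 for rpl2 and 0.989 to 375 for ycf2. Replicate 3 of tpt-2 at 9 h held 9 of the 35 rpl2 fragments and 8 of the 17 ycf2 fragments. Without it, the 9 h fragments were 9 in tpt-2 against 3 in Col-0 for rpl2 (ratio 4.34, exact 95% interval 1.08 to 24.9). For ycf2 they were 3 against 0. The intervals cover counting error only, and each gene has a second identical copy.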

How the results depend on the processing

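The counts and the 9 h and 18 h log2 fold changes of single genes did not change direction under the alternatives tried. Relative to the other plastid genes, single genes did: with a pseudocount of 0.1 in place of 1, rps19 at 9 h was at 0.80 in place of -0.08, and accD at 18 h at 0.47 in place of -1.12, neither called with 0.1. At 9 h the 26 calls became 20 to 26 under the other settings and 22 to 26 when a library was left out, all higher in tpt-2, and the calls of ccsA and rpoB were lost under 15 and 13 of them. At 18 h the 8 calls became 17 with only the libraries compared, 17 with array weights and 0 with voom, and 3 to 18 when a library was left out, with 18 without tpt-2 replicate 3 at 9 h, 4 without tpt-2 replicate 2 at 18 h, and 4, 3 and 4 without Col-0 replicates 1, 2 and 3 at 18 h. Of the 0 calls for 18 h against 9 h in tpt-2, leaving out a library gave 0 to 2 (2, lower, without tpt-2 replicate 1 or 2 at 9 h, and 1, higher, without replicate 3 at 9 h). In Col-0 the 0 calls became 1 with only the libraries compared, and 0 to 1 when a library was left out (1 without tpt-2 replicate 3 at 9 h). The interaction stayed at 0 in all of them. Relative to the other plastid genes, the 15 calls at 9 h became 5 with only the libraries compared and 24 with array weights (20 lower, 4 higher), and 10 to 20 when a library was left out; the 15 at 18 h became 26 with array weights (22 lower, 4 higher), and 11 to 22 when a library was left out. The cause of these shifts was not tested. Quantile normalization put the median over all genes at 18 h at -0.02, against 0.09 without it, which is small beside the differences of most of the 27 genes. For the nuclear ribosomal protein list at 9 h, the 23 calls became 12 with median-ratio scaling and 13 with only the libraries compared. At 18 h the 1 call of that list became 0 to 4 under the other settings and 0 to 1 when a library was left out. With the replicate block the calls were 24 at 9 h and 6 at 18 h; the pairing was not borne out, since 5 of 18 same-numbered pairs had a correlation of deviations over 0.1 (range -0.34 to 0.14) and 2 of the 12 libraries were closest to their own number. Depth limits the genes with few fragments in Col-0, above all rps16, rps15, ccsA, accD, rps19 and rps2.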
